A study of Mus musculus with 4 samples.

Results

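The genes described are those whose products build the mitochondrial respiratory chain and ATP synthase. They were taken by symbol, as every gene of the count table whose name starts with Nduf, Sdh, Uqcr, Cox4 to Cox8, Atp5, mt-Nd, mt-Co, mt-Cytb or mt-Atp. That gave 111 of 32285 genes, of which 98 are nuclear and 13 are encoded by mitochondrial DNA. By complex, the nuclear and mitochondrially encoded members numbered 45 and 7 for complex I, 8 and 0 for complex II, 8 and 1 for complex III, 20 and 3 for complex IV, and 17 and 2 for complex V. The nuclear members of complexes I and II include 8 and 4 assembly factors.

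Complexes I to IV pass electrons from NADH and succinate to oxygen, and complexes I, III and IV pump protons as they do so. Complex V, the ATP synthase, lets the protons back and makes ATP. All complexes except II are mosaics, with some subunits made inside the mitochondrion from mitochondrial DNA and many more imported from the cytosol. T cells are known to build up mitochondria when they leave quiescence and divide.

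The cells were T cells sorted alive by flow cytometry from the draining lymph nodes of mice that carried MC38-OVA tumours, and each of 4 single-cell 5′ libraries was made from polyA RNA with the SeekOne DD kit. KO-DOX came from mice labelled PD-L1 knockout that received doxorubicin, an anthracycline that intercalates into DNA and poisons topoisomerase II. KO-CTRL came from mice labelled PD-L1 knockout given the control treatment, WT-DOX from mice of control genotype given doxorubicin, and WT-CTRL from mice of control genotype given the control treatment. By the design text the knockout is conditional to dendritic cells, so T cells are not the targeted cells, and no label names the Cre driver, the age of the mice or how many mice were pooled. All 4 groups bore the tumour.

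Barcodes count as T cells (T-gated) with at least 1 UMI (unique molecular identifier, 1 per captured RNA molecule) of a T cell receptor or CD3 gene and fewer than 2 UMIs of B cell and myeloid genes. CD8 and CD4 cells are T-gated, non-cycling cells with UMIs of only that coreceptor, and cycling cells have at least 2 UMIs of Mki67 and Top2a together. Levels are UMIs summed over the cells of a library and gate relative to all UMIs of the same cells (counts per 1e+06, CPM). The T gate kept 10116, 12711, 12196 and 12489 cells of KO-DOX, KO-CTRL, WT-DOX and WT-CTRL, and the median barcode of a library held 2985 to 3066 UMIs. Cd274 itself, which encodes PD-L1, stood at 82.5, 84.4, 65.4 and 67.4 CPM in T-gated cells of KO-DOX, KO-CTRL, WT-DOX and WT-CTRL, which is no check of a deletion in dendritic cells. Summed levels of markers of other cells differed little between the T-gated libraries. The 3 B cell markers gave 169.9 to 172 CPM, nearly all from Ighm, the 4 dendritic markers 2.87 to 3.93 CPM, the 3 myeloid markers 58.1 to 67.4 CPM, nearly all from Cst3, the 2 natural killer markers 1.62 to 2.60 CPM, the 2 red cell markers 0 to 0.503 CPM, and the 2 platelet markers no UMI. Markers left out of the gates followed them. The 4 CD4 markers summed to 115 to 133 CPM in CD8 cells and to 614 to 714 CPM in CD4 cells, the 4 CD8 markers to 1026 to 1191 CPM in CD8 cells and to 152 to 188 CPM in CD4 cells, and the 6 cycling markers to 2978 to 3066 CPM in cycling cells and to 450 to 481 CPM in non-cycling cells. Any 2 libraries shared 175 to 271 barcodes. Without them the log2 ratio of the mitochondrially encoded sum for KO-DOX over KO-CTRL was -0.57, as with them.

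Of the 111 members, 100 reached a mean of 5 CPM over the 4 libraries, 89 nuclear and 11 mitochondrially encoded. Below it were mt-Nd3 at 2.63, 3.88, 3.45 and 5.62 CPM and mt-Nd6 at 0.56, 0.69, 0.75 and 1.01 CPM in KO-DOX, KO-CTRL, WT-DOX and WT-CTRL. mt-Nd6 is the one mitochondrial protein gene read from the other strand. Ndufa13, a complex I subunit, and Cox8c, a testis isoform, had no UMI in any library, which allows up to 0.0647 to 0.0806 CPM (3 UMIs of a library). In the annotation Ndufa13 shares 8379 bases with Yjefn3 on the same strand, and how such reads were assigned is not given. The annotation also names gene copies of Uqcrh (Uqcrh-ps1 and Uqcrh-ps2), Atp5k (Atp5k-ps2), Ndufab1 (Ndufab1-ps) and Ndufb4 (Ndufb4c), and reads shared with them leave these levels uncertain. The 43 bases shared by mt-Atp8 and mt-Atp6 and the 7 shared by mt-Nd4l and mt-Nd4 leave those pairs imperfectly separated.

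The tissue-restricted isoforms of complex IV were at or near 0, whereas their common counterparts were all detected in each library. Cox4i1, the common form of subunit 4, stood at 671, 635, 651 and 608 CPM in KO-DOX, KO-CTRL, WT-DOX and WT-CTRL, while Cox4i2, the lung form, had 1, 3, 6 and 6 UMIs. Cox8a stood at 656, 615, 602 and 551 CPM and Cox8b, a heart and muscle form, had 0, 0, 1 and 2 UMIs. Ndufa4, now counted with complex IV, stood at 354, 357, 349 and 322 CPM, and its hypoxia-induced relative Ndufa4l2 had 1 UMI in KO-DOX and none in the other libraries. Cox6b1 stood at 275, 255, 246 and 231 CPM and Cox6b2, a testis form, at 1.34, 0.58, 1.27 and 0.96 CPM. Cox7a2 stood at 215, 211, 211 and 198 CPM and Cox7a1, the heart and muscle form, at 0.70, 0.71, 0.59 and 0.50 CPM. The 3 genes for subunit c of the ATP synthase were all expressed, with Atp5g1 at 276, 261, 257 and 237 CPM, Atp5g2 at 584, 549, 551 and 525 CPM and Atp5g3 at 659.5, 639.8, 597 and 572 CPM.

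Cox6a2, the heart and muscle form of subunit 6a, had few UMIs as well. They numbered 62 in KO-DOX and 59 in KO-CTRL, against 9 in WT-DOX and 7 in WT-CTRL, or 1.66, 1.27, 0.21 and 0.15 CPM. Both libraries labelled knockout lay above both of control genotype. CD8 cells held 42, 47, 9 and 5 of these UMIs in that order of libraries and CD4 cells 1, 1, 0 and 0. The gene overlaps Itgad by 953 bases on the opposite strand, so reads of that gene cannot be told apart without strand. Its common counterpart Cox6a1 stood at 309, 281, 297 and 279 CPM.

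Cycling T cells held more RNA of nuclear members and less of mitochondrially encoded members, per UMI, than non-cycling T cells of the same library. Of 91 nuclear members tested, 81 rose and 5 fell, with a median log2 difference of 0.86, beside 37.2% of all 12546 genes tested that rose and 38.1% that fell and a median over all genes of -0.04. The 81 include Cox7a1 and Cox6b2, which passed the filter on low counts only through cycling cells. Of 13 mitochondrially encoded members 12 fell, with a median of -1.41. Over libraries, all 4 cycling values lay above all 4 non-cycling values for 78 of 89 nuclear members of at least 5 CPM and below them for 4, and below them for 11 of 11 mitochondrially encoded members, beside 38% of all genes above and 38.1% below. When the test's calls were held to a log2 difference of at least 0.5 in size, 64 nuclear members rose and 1 fell and 12 mitochondrially encoded members fell, beside 27.3% and 27% of all genes.

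The promoters of the nuclear members of at least 5 CPM with the largest differences in each direction are printed to show which motifs of 2 factors known to act on genes of the chain stand there. They are Ndufa12, Cox5a, Ndufab1 and Sdhd, which rose, and Cox7a2l and Uqcrh, which fell. Each runs from 250 bases before to 50 bases after the gene start in RefSeq for GRCm38.p6, 5′ to 3′ on the strand of the gene. Capitals mark matches to GCGCA, any 1 base and GCGC, the letters bound by NRF1, and to CCGGAAG or its reverse complement, the letters bound by GABPA, also called NRF2.
Ndufa12, chr10:94198785-94199084, plus strand: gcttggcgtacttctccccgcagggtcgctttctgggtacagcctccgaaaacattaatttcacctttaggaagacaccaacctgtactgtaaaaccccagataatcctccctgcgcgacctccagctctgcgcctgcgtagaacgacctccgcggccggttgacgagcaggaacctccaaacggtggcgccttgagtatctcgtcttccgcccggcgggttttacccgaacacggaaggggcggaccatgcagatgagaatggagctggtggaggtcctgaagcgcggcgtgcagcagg
Cox5a, chr9:57520982-57521281, plus strand: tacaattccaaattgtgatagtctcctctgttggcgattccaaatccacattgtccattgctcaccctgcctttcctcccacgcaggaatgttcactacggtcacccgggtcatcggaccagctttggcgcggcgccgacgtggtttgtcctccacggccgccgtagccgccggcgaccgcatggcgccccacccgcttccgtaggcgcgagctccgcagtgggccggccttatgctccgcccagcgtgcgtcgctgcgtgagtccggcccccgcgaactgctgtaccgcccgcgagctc
Ndufab1, chr7:122101799-122102098, minus strand: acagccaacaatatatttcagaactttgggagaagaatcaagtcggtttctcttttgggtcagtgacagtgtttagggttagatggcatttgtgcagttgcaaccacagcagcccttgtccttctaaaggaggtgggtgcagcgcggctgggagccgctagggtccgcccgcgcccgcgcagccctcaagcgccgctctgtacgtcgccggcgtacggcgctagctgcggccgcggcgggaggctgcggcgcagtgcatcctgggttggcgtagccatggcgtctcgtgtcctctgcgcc
Sdhd, chr9:50603800-50604099, minus strand: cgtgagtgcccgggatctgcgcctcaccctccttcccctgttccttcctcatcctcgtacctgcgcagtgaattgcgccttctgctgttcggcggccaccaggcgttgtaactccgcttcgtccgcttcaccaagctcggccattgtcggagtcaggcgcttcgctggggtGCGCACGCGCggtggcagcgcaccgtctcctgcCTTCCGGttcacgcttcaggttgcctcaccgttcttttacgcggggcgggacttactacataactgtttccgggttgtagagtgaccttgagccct
Cox7a2l, chr17:83514284-83514583, minus strand: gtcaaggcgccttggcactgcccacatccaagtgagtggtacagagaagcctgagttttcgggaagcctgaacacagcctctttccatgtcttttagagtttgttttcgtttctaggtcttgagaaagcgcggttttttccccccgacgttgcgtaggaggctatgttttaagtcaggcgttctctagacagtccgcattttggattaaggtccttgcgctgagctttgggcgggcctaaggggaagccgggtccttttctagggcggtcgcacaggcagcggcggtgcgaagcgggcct
Uqcrh, chr4:116075021-116075320, minus strand: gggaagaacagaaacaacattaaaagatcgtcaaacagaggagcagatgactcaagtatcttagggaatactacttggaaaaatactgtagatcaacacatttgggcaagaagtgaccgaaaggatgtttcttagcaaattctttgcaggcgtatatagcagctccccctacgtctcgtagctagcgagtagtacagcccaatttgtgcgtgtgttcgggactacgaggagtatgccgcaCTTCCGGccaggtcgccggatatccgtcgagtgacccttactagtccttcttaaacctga
Sdhd had a match to the NRF1 letters that starts 79 bases before the gene start and one to the GABPA letters 46 bases before it, and Uqcrh had one to the GABPA letters 10 bases before it. The promoters of Ndufa12, Cox5a, Ndufab1 and Cox7a2l held neither in this window.

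RefSeq had a promoter for 79 of the 98 nuclear members, matched by symbol. A gene counts as matched where any of its promoters holds the letters on either strand. The NRF1 letters were found for 21 members (26.6%), beside 5.19% of all 27025 genes with promoters of the same length. CCGGAAG was found for 22 members (27.8%), beside 9.93% of all genes, and AANATGGCG, the letters bound by YY1, for 12 (15.2%), beside 2.76%. CACGTG, the E-box bound by MYC among others, was found for 5 members (6.33%), beside 8.09%. No match to one of these motifs overlapped a match to another. The median log2 difference of cycling over non-cycling cells was 0.86 in the 21 tested members with the NRF1 letters and 0.97 in the 55 without, 0.96 in the 22 with the GABPA letters and 0.89 in the 54 without, and 0.71 in the 12 with the YY1 letters and 0.95 in the 64 without. With and without the E-box it was 0.81 in 5 members and 0.94 in 71.

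In complex I, 34 of the 36 nuclear subunits tested rose in cycling cells and 1 fell, beside 37.2% and 38.1% of all genes. Ndufa12, an accessory subunit placed late in assembly, stood at 138, 132, 133 and 123 CPM in cycling cells of KO-DOX, KO-CTRL, WT-DOX and WT-CTRL, against 47.6, 41.7, 45.9 and 39.4 CPM in their non-cycling cells. Every cycling value lay above every non-cycling one, with a log2 difference of 1.60 ± 0.04 (SE from the edgeR fit, n = 4 libraries) and an edgeR adjusted p of 1.5e-12. Ndufab1, the mitochondrial acyl carrier protein that is also a subunit of the complex, stood at 245, 221, 223 and 206 CPM in cycling cells and at 84.9, 82.9, 83.4 and 73.3 CPM in non-cycling cells, a log2 difference of 1.47 ± 0.04 (edgeR adjusted p = 2.8e-12). Ndufa6, a member of the LYR family that binds the acyl carrier, went the other way, with 176, 175, 191 and 160.2 CPM in cycling cells and 207, 197, 205 and 192 CPM in non-cycling cells. Its difference was small, at -0.18 ± 0.04 (edgeR adjusted p = 6.4e-04), but the groups did not overlap. The core subunits Ndufs7, Ndufs8 and Ndufv2, which carry iron-sulphur clusters, rose by 0.47, 1.08 and 1.03 on the log2 scale. The accessory subunits Ndufa1, Ndufa3, Ndufa10 and Ndufb11 rose by 0.39, 0.61, 0.48 and 0.38, and Ndufs4 and Ndufb1-ps by 0.38 and 0.69. Ndufb1-ps is counted with the subunits here and in the sums, although it is annotated as a non-coding transcript. Ndufb4 did not pass the test, with -0.16 ± 0.15.

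Complex II, which is succinate dehydrogenase of the citric acid cycle and has no mitochondrially encoded subunit, split by subunit. Sdhd, a membrane anchor, stood at 132, 125, 125 and 127 CPM in cycling cells of KO-DOX, KO-CTRL, WT-DOX and WT-CTRL, against 51.0, 46.7, 46.4 and 46.1 CPM in non-cycling cells, with a log2 difference of 1.43 ± 0.04 (edgeR adjusted p = 2.7e-12). Sdhb, the iron-sulphur subunit, rose by 1.03 ± 0.04 and Sdhc, the other anchor, by 0.76 ± 0.05. Sdha, the flavoprotein that oxidises succinate, stood at 70.6, 64.3, 64.6 and 58.3 CPM in cycling cells and at 62.6, 62.9, 61.5 and 63.1 CPM in non-cycling cells. These ranges overlap, and the log2 difference was 0.05 ± 0.06 (edgeR adjusted p = 0.42). The other 3 subunits did not overlap between classes.

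In complex III, 7 of 8 nuclear subunits rose, beside 37.2% of all genes. Uqcrb and Uqcr10, small subunits of the membrane part, each rose by 1.13, Uqcrq by 0.74, and Uqcrfs1, the Rieske iron-sulphur protein, by 0.49. Uqcrh, the hinge protein at the site of cytochrome c1, was the member that fell, with 461, 459, 506 and 424 CPM in cycling cells of KO-DOX, KO-CTRL, WT-DOX and WT-CTRL, against 636, 624, 675 and 600.1 CPM in non-cycling cells. No cycling value reached a non-cycling one, and the log2 difference was -0.45 ± 0.03 (edgeR adjusted p = 1.1e-08).

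In complex IV, 13 of 14 nuclear members tested rose, beside 37.2% of all genes. Cox5a, one of the subunits fitted next to the catalytic core, stood at 586, 587, 593 and 553 CPM in cycling cells of KO-DOX, KO-CTRL, WT-DOX and WT-CTRL, against 223, 205, 212 and 193 CPM in non-cycling cells. The groups lay far apart, with a log2 difference of 1.49 ± 0.03 (edgeR adjusted p = 8.4e-14). Cox5b rose by 1.24, Ndufa4 and Cox6a1 by 1.03, Cox6b1 by 1.09, Cox8a by 0.94, Cox7c by 0.87, Cox7a2 by 0.86 and Cox4i1 by 0.44. Cox7a2l, which helps to join complexes III and IV into a supercomplex, stood at 220.1, 209, 255 and 232 CPM in cycling cells and at 445, 446, 452 and 454 CPM in non-cycling cells. It fell by 0.97 ± 0.04 on the log2 scale (edgeR adjusted p = 7.4e-11), and its 4 cycling values were all below its 4 non-cycling ones. Of the isoforms that are otherwise restricted, Cox7a1 had 17, 18, 13 and 15 UMIs in cycling cells, against 9, 15, 12 and 8 in non-cycling cells, or 3.29, 2.84, 3.41 and 2.86 CPM against 0.28, 0.37, 0.31 and 0.20 CPM. Cox6b2 had 20, 8, 16 and 13 UMIs in cycling cells, against 30, 19, 38 and 31 in non-cycling cells, or 3.87, 1.26, 4.2 and 2.48 CPM against 0.94, 0.47, 0.98 and 0.76 CPM. Both passed the filter on low counts only through their level in cycling cells, so no fold or test is given for them, although the 13 members above include them.

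All 17 nuclear subunits of complex V rose, beside 37.2% of all genes. For subunit c, Atp5g3 stood at 1333, 1337, 1313 and 1221 CPM in cycling cells of KO-DOX, KO-CTRL, WT-DOX and WT-CTRL, against 551, 529, 526 and 489 CPM in non-cycling cells, a log2 difference of 1.32 ± 0.03 (edgeR adjusted p = 8.8e-14). Atp5g1 rose by 1.03 and Atp5g2 by 0.80, and none of the 3 genes overlapped between classes. Of the catalytic head and stalk, Atp5a1 rose by 0.60, Atp5f1 by 1.10 and Atp5e by 0.38, and of the small membrane subunits Atp5k rose by 1.26, Atp5md by 0.61 and Atp5mpl by 0.38.

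Among the 12 assembly factors 7 rose and 2 fell, with a median of 0.37, beside 37.2% of all genes that rose and 38.1% that fell. Ndufaf2, a chaperone of late complex I assembly, rose by 1.36 ± 0.07, Ndufaf1 by 1.04, Ndufaf6 by 0.90, Sdhaf2, which helps to attach the flavin to Sdha, by 0.55, and Ndufaf5 by 0.20. Sdhaf1, which helps to fit iron-sulphur clusters into Sdhb, stood at 47.8, 45.9, 41.0 and 46.2 CPM in cycling cells of KO-DOX, KO-CTRL, WT-DOX and WT-CTRL, against 61.9, 59.5, 59.5 and 52.1 CPM in non-cycling cells, and fell by 0.35 ± 0.06 (edgeR adjusted p = 1.6e-04). Ndufaf4 fell by 0.18 ± 0.06 (edgeR adjusted p = 0.017), with ranges that overlap.

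The mitochondrially encoded members fell together in cycling cells, and the amount differed little between complexes. mt-Co1, the catalytic core of complex IV, stood at 43.5, 61.7, 75.1 and 59.0 CPM in cycling cells of KO-DOX, KO-CTRL, WT-DOX and WT-CTRL, against 116.5, 177, 171 and 189 CPM in non-cycling cells, a log2 difference of -1.45 ± 0.07 (edgeR adjusted p = 2.6e-10). mt-Cytb, the cytochrome b of complex III, stood at 68.7, 92.1, 109.8 and 70.9 CPM in cycling cells and at 149.6, 224, 228 and 219.96 CPM in non-cycling cells, a difference of -1.27 ± 0.07 (edgeR adjusted p = 3.3e-09). No cycling value of either gene reached the lowest non-cycling one. The largest difference was that of mt-Nd2 at -1.56 ± 0.10, followed by mt-Co3 at -1.55 and mt-Atp8 at -1.47, and the smallest among those called was mt-Co2 at -1.19. The others were mt-Nd5 at -1.45, mt-Atp6 at -1.43, mt-Nd3 at -1.41, mt-Nd4 at -1.40, mt-Nd1 at -1.37 and mt-Nd4l at -1.30. mt-Nd6, with 11 UMIs in cycling and 120 in non-cycling cells, was at -0.55 ± 0.47 and did not pass the test.

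**Figure D1:**
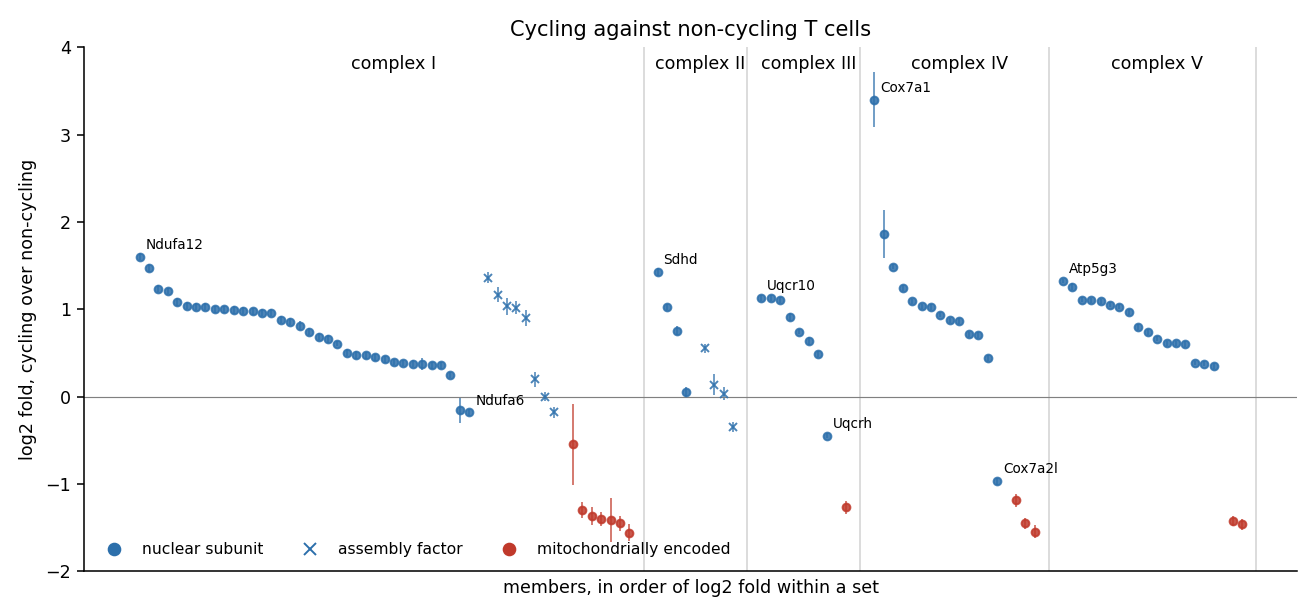
Log2 fold of cycling over non-cycling T cells for each member tested, in order within each complex. Points are edgeR estimates over 4 libraries with bars of 1 SE derived from the test of the fit. Blue circles are nuclear subunits, blue crosses assembly factors and red circles mitochondrially encoded members. Among nuclear members of at least 5 CPM Ndufa12 is highest at 1.60 and Cox7a2l lowest at -0.97. The points of Cox7a1 and Cox6b2 rest on few UMIs, and both genes were tested only because of their level in cycling cells. The mitochondrially encoded members lie between -1.56 and -0.55.

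Over all cells of each class, the opposite movement of both genomes was seen in each library. The sum over nuclear subunits was higher in cycling cells by 0.72, 0.77, 0.75 and 0.73 on the log2 scale in KO-DOX, KO-CTRL, WT-DOX and WT-CTRL, and the sum over mitochondrially encoded members differed by -1.29, -1.41, -1.10 and -1.60. Cycling cells thus held 93.7, 67.2, 53.5 and 69.0 nuclear subunit UMIs per mitochondrially encoded UMI, against 23.2, 14.8, 14.8 and 13.7 in non-cycling cells. These are shares of the RNA caught. Per cell, cycling cells held more of both, with 4.56, 6.92, 7.36 and 5.79 mitochondrially encoded UMIs, against 2.33, 3.43, 3.48 and 3.72 in non-cycling cells, and with 427, 465, 394 and 399.9 nuclear subunit UMIs, against 54.0, 51.0, 51.4 and 50.8.

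Depth moved with the class. The median cycling cell held 13062, 14093, 11950 and 12977 UMIs in KO-DOX, KO-CTRL, WT-DOX and WT-CTRL, against 2975, 3015, 2993 and 3068 in non-cycling cells. Malat1, a nuclear RNA, made up 0.27 to 0.33% of UMIs in cycling and 0.98 to 1.29% in non-cycling cells, and ribosomal protein genes 19.0 to 20.6% against 25.5 to 26.6%. Mitochondrially encoded CPM was lower, and nuclear CPM higher, in the deepest than in the shallowest cells of every library. With cells thinned to 1500 UMIs, cycling cells held a mean of 0.79, 0.85, 1.45 and 1.25 mitochondrially encoded UMIs in that order of libraries. Non-cycling cells held 1.06, 1.63, 1.60 and 1.68. Thinning draws UMIs at random within a cell and keeps its expected share, so it weighs the kept cells alike but cannot test depth or doublets. The part of depth in the class difference was not tested beyond the depth ranges that follow, and that of doublets was not tested. Among non-cycling cells of KO-CTRL the mitochondrially encoded sum was 2576 CPM in cells of 500 to 1500 UMIs and 485 CPM in cells of at least 10000 UMIs.

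With both classes held to cells of at least 10000 UMIs, 59 of 89 nuclear members rose and 4 fell, with a median of 0.30, and 11 of 11 mitochondrially encoded members fell, with a median of -0.73, beside 22.5% and 20.9% of 9363 genes. With both held to 5000 to 10000 UMIs, 32 of 89 nuclear members rose and 4 fell, with a median of 0.16, and 4 of 11 mitochondrially encoded members fell, with a median of -0.40, beside 15.6% and 11.7% of 9992 genes. All 11 mitochondrially encoded members had a negative estimate in both ranges, and the nuclear direction was positive for 68 and 81 of 89. At 5000 to 10000 UMIs the mitochondrially encoded sum in cycling cells was 369 (KO-DOX), 859 (KO-CTRL), 757 (WT-DOX) and 756 CPM (WT-CTRL). Non-cycling cells of that range held 614, 836, 900 and 876 CPM in that order, so KO-CTRL lacked the fall. At 3500 to 5000 UMIs cycling cells, 24, 32, 23 and 21 in number, held 1088, 1059, 2540 and 898 CPM. Non-cycling cells held 650, 1009, 1000 and 997 CPM there, so only WT-CTRL had the fall. The fall of Cox7a2l and Uqcrh held in both ranges, at -0.68 and -0.38 in the shallower and -0.60 and -0.31 in the deeper one, and Cox5a rose by 0.69 and 0.72. Ndufa12 and Ndufab1 passed the test in the deeper range only, with 0.58 and 0.51, and had 0.30 (edgeR adjusted p = 0.16) and 0.05 (edgeR adjusted p = 0.79) in the shallower one.

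**Figure D2:**
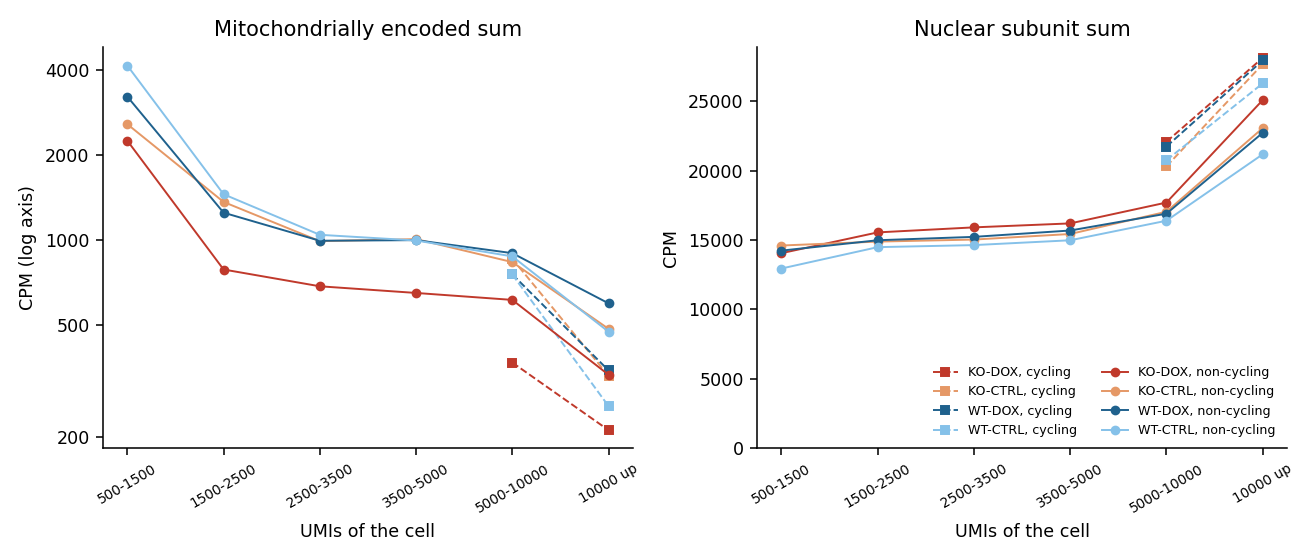
Summed CPM of mitochondrially encoded members (left, log axis) and of nuclear subunits (right) in cells grouped by their number of UMIs, by library, with dashed lines for cycling and solid lines for non-cycling cells. Groups of fewer than 50 cells are not drawn. The mitochondrially encoded level of KO-DOX is the lowest of the 4 libraries in every group of non-cycling cells.

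Of other mitochondrial gene lists, the ribosomal proteins, the citric acid cycle genes and the electron carriers mostly rose in cycling cells, beside 37.2% of all genes tested that rose and 38.1% that fell. Of 78 mitochondrial ribosomal proteins, which translate the mitochondrially encoded members, 70 rose and 2 fell, with a median of 0.77. Of 13 citric acid cycle genes 10 rose and 2 fell, among them fumarase Fh1 at 1.81, Idh3a at 1.30 and citrate synthase Cs at 1.11, while Ogdh and Suclg2 fell by 0.29 and 0.19. Of the electron carriers and the subunit Cyc1 outside the symbol rule 4 of 5 rose, with Etfb at 1.80, cytochrome c (Cycs) at 1.31, Cyc1 at 1.18 and Etfa at 1.03, and Etfdh had -0.04. Of 30 assembly factors outside the rule 18 rose and 5 fell, and the 5 were Ttc19, Cox10, Cox14, Cox11 and Cox16. Of 13 genes that copy and transcribe mitochondrial DNA 5 were higher and 4 lower, shares near those of all genes. Slirp, which stabilises mitochondrial messengers, rose by 1.60, Tefm by 1.16, Tfb1m by 1.03, Ssbp1 by 0.71 and Tfam, which packages mitochondrial DNA, by 0.51. Tfb2m, which helps the mitochondrial RNA polymerase Polrmt to start, fell by 0.77, while Polrmt itself had -0.04 and was not called. Polg2 and Polg, subunits of the mitochondrial DNA polymerase, fell by 0.67 and 0.25, and Mterf3 by 0.43. Of 6 regulators tested Gabpa and Nrf1 rose by 0.59 and 0.20, Ppargc1b and Yy1 fell by 1.31 and 0.23, and Myc had -0.11. These 2 higher and 2 lower are also near the shares of all genes.

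Between the libraries the difference lay in the mitochondrially encoded members of KO-DOX. Their sum was 652, 968, 1019 and 1030 CPM in KO-DOX, KO-CTRL, WT-DOX and WT-CTRL, so the last 3 lay close together and KO-DOX far below. The median barcode held 0.0323, 0.06, 0.0567 and 0.0642% of its UMIs in these members, low shares for droplet data. Whether such UMIs or the cells rich in them were reduced before deposit is not given in the sources used here, and its part in the differences between libraries was not tested. The log2 ratio of the sum was -0.57 (95% interval -0.59 to -0.55) for KO-DOX over KO-CTRL, -0.64 (-0.67 to -0.62) for KO-DOX over WT-DOX, -0.02 (-0.03 to 0.0029) for WT-DOX over WT-CTRL and -0.09 (-0.11 to -0.07) for KO-CTRL over WT-CTRL. The log2 ratio of doxorubicin over control treatment in the knockout-labelled pair, minus that in the pair of control genotype, was -0.55 (-0.58 to -0.53). Each group is 1 library, so no test between groups exists, and the intervals hold counting error only. Malat1 took 0.942, 1.09, 0.919 and 1.18% of UMIs in KO-DOX, KO-CTRL, WT-DOX and WT-CTRL, and without cells of high Malat1 and Neat1 share the ratio for KO-DOX over KO-CTRL was -0.59.

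By a rule of size, a member counts as higher or lower between libraries where its log2 fold of CPM plus 1 is at least 0.32 in size, the exact Poisson 95% intervals lie apart and its mean is at least 5 CPM. All 11 mitochondrially encoded members of at least 5 CPM passed it in KO-DOX against KO-CTRL, where 0.907% of all 9036 genes were lower by that rule, and in KO-DOX against WT-DOX, where 1.05% were. mt-Cytb stood at 138, 206, 218 and 203 CPM in KO-DOX, KO-CTRL, WT-DOX and WT-CTRL, mt-Co1 at 106, 161, 163 and 174 CPM and mt-Co2 at 102, 148, 157 and 155 CPM. KO-DOX was the lowest library for each. mt-Atp8 had the smallest log2 fold against KO-CTRL at -0.45 and mt-Nd4 the largest at -0.66. Between them lay mt-Nd4l at -0.50, mt-Nd1 and mt-Nd5 at -0.53, mt-Nd2 at -0.58, mt-Atp6 at -0.62 and mt-Co3 at -0.63. By complex the log2 ratio of the mitochondrially encoded sums was -0.56, -0.58, -0.58 and -0.56 for complexes I, III, IV and V, so each was lower by about the same amount. The make-up of the mitochondrially encoded UMIs changed little, with mt-Cytb at 21.2, 21.3, 21.4 and 19.7% of them in KO-DOX, KO-CTRL, WT-DOX and WT-CTRL, mt-Co1 at 16.3, 16.7, 15.98 and 16.9% and mt-Nd4l at 10.5, 10.1, 10.8 and 10.3%.

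**Figure D3:**
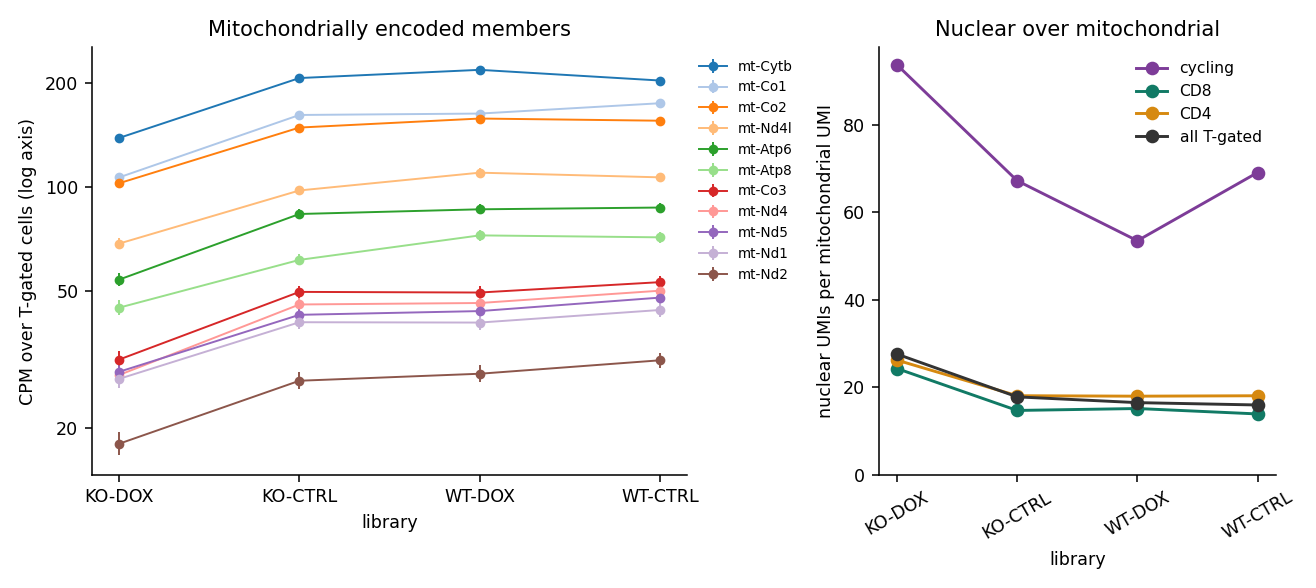
Left, CPM of each mitochondrially encoded member of at least 5 CPM over T-gated cells (log axis) in KO-DOX, KO-CTRL, WT-DOX and WT-CTRL, with bars of the exact Poisson 95% interval. Right, nuclear subunit UMIs per mitochondrially encoded UMI in the same libraries for all T-gated, CD4, CD8 and cycling cells. Every line on the left is lowest in KO-DOX, and the ratio over all T-gated cells is 27.6 there and 15.9 to 17.8 in the other libraries.

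The lower level in KO-DOX was present in each gate. The mitochondrially encoded sum was 646, 907, 883 and 888 CPM in CD4 cells of KO-DOX, KO-CTRL, WT-DOX and WT-CTRL, 678, 1067, 1056 and 1093 CPM in CD8 cells and 290, 399, 499 and 367 CPM in cycling cells. Of 11 members, 10 in CD4 cells, 11 in CD8 cells and 5 in cycling cells passed the rule of size as lower in KO-DOX against KO-CTRL, beside 0.807%, 1.2% and 1.64% of all genes. It was also present at each depth of non-cycling cells, with 2251, 787, 687, 650.2, 614 and 334 CPM in KO-DOX from the shallowest to the deepest group, against 2576, 1366, 992, 1009, 836 and 485 CPM in KO-CTRL. After each T-gated cell was thinned to 1500 UMIs, 56.2, 42.8, 44.6 and 42.3% of cells had no mitochondrially encoded UMI in KO-DOX, KO-CTRL, WT-DOX and WT-CTRL, and without thinning 39.4, 26.2, 27.8 and 24.5%. The shallower cells left out of the thinned shares numbered 817, 1148, 996 and 1111.

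In KO-CTRL against WT-CTRL no member of either genome differed by the rule of size in CD4 cells, beside 1.15% of genes higher and 0.697% lower, or in CD8 cells, beside 1.24% and 0.949%. In cycling cells 2 of 11 mitochondrially encoded members were higher, beside 1.51%, and none was lower, beside 2.02%. In KO-DOX against WT-DOX 8, 11 and 9 of 11 were lower in CD4, CD8 and cycling cells, beside 0.984%, 0.904% and 2.59%.

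Cycling cells of WT-DOX held a higher mitochondrially encoded sum than those of WT-CTRL, with a log2 ratio of 0.44 (0.35 to 0.53), and 4 of 11 members passed the rule of size as higher, beside 1.85% of all genes. The cells numbered 258 and 332. In cells of 5000 to 10000 UMIs the sum was 757 and 756 CPM in WT-DOX and WT-CTRL, in cells of at least 10000 UMIs it was 346 and 258 CPM, and 23 WT-DOX cells of 3500 to 5000 UMIs stood at 2540 CPM against 898 CPM in 21 WT-CTRL cells.

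The nuclear members did not follow. Their subunit sum was 17973, 17227, 16776 and 16412 CPM in KO-DOX, KO-CTRL, WT-DOX and WT-CTRL, highest in the library with the lowest mitochondrially encoded sum. The log2 ratios were 0.06 for KO-DOX over KO-CTRL, 0.10 for KO-DOX over WT-DOX, 0.03 for WT-DOX over WT-CTRL and 0.07 for KO-CTRL over WT-CTRL. In KO-DOX, KO-CTRL, WT-DOX and WT-CTRL the sum was 16449, 15676, 15980 and 15184 CPM in CD8 cells. It was 16927, 16379, 15845 and 16026 CPM in CD4 cells and 27153, 26772, 26669 and 25358 CPM in cycling cells, which numbered 329, 365, 258 and 332. With an equal mix of these classes the log2 ratio was 0.055 for KO-DOX over WT-DOX. It was 0.044 for KO-CTRL over WT-CTRL and 0.051 for WT-DOX over WT-CTRL. The ratio of WT-DOX over WT-CTRL turned to -0.0084 without cells of high Malat1 and Neat1 share. The doxorubicin differences of the 2 genotypes differed by 0.03. The direction was the same for complexes I to V, whose nuclear sums in KO-DOX over KO-CTRL gave 0.06, 0.06, 0.06, 0.07 and 0.06. Small differences were widespread. Intervals narrow with more UMIs, and the shares over all genes below take in every gene of at least 5 CPM. The counts below take all T-gated cells together, and the parts of level and of class mix in them were not tested. The intervals lay apart, with the knockout-labelled library higher, for 61 of 89 nuclear members in KO-DOX against WT-DOX and for 47 of 89 in KO-CTRL against WT-CTRL, beside 18.1% and 12.3% of all genes. For 38 of 89 they lay apart with KO-DOX above KO-CTRL, beside 8.52%, and for 32 of 89 with WT-DOX above WT-CTRL, beside 9.83%. The opposite held for 3 of 89 with KO-DOX below KO-CTRL, beside 6.22%, for 10 with WT-DOX below WT-CTRL, beside 16.1%, for 2 with KO-DOX below WT-DOX, beside 9.33%, and for 6 with KO-CTRL below WT-CTRL, beside 11.3%. Each of these comparisons shares a library with another, and the median fold over the nuclear members was between 0.04 and 0.11 in all 4.

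Few nuclear members passed the rule of size. In WT-DOX against WT-CTRL 2 of 89 were lower, beside 3.51% of all genes, and these same members made up the 2 of 89 that were higher in KO-DOX against WT-DOX, beside 4.4%. Atp5k, subunit e of the ATP synthase membrane part (chromosome 5, GRCm38, bases 108433244 to 108434448, minus strand), stood at 139, 149.6, 101 and 161 CPM in KO-DOX, KO-CTRL, WT-DOX and WT-CTRL, log2 folds of -0.67 for WT-DOX over WT-CTRL and -0.11 for KO-DOX over KO-CTRL. Ndufb1-ps, annotated as a non-coding transcript at a bidirectional promoter on chromosome 12 (GRCm38, bases 101968090 to 101977068, minus strand), stood at 163, 172, 124 and 186 CPM, folds of -0.59 and -0.08. WT-DOX was the lowest library for both, in all T-gated cells and in each gate. Within gates, nuclear members lower in WT-DOX against WT-CTRL numbered 2 of 89 in CD4, 2 in CD8 and 5 in cycling cells, beside 1.57%, 2.65% and 3.36% of all genes. Those higher numbered 0, 0 and 1, beside 1.17%, 0.881% and 1.85%. In KO-DOX against WT-DOX 4, 2 and 2 were higher, beside 2.63%, 1.14% and 2.17%, and in KO-DOX against KO-CTRL none was higher, beside 1.72%, 0.675% and 1.04%. In CD8 cells Atp5k stood at 115, 123, 90.2 and 138 CPM and in CD4 cells at 127, 129, 89.2 and 152 CPM. Ndufb1-ps overlaps Cpsf2 by 1081 bases on the opposite strand.

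In KO-DOX against KO-CTRL 1 nuclear member was lower and none higher, beside 0.907% and 0.73%. It was Ndufb4, at 8.78, 11.4, 9.12 and 11.1 CPM in KO-DOX, KO-CTRL, WT-DOX and WT-CTRL, where both doxorubicin libraries lay below both controls. No nuclear member passed the rule of size in KO-CTRL against WT-CTRL, beside 1.54% of genes higher and 0.764% lower. The extremes by complex for WT-DOX over WT-CTRL were Ndufs7 at 0.15, Sdhb at 0.11 and Sdhd at -0.05, Uqcrh at 0.19 and Uqcrb at -0.08, Cox8a at 0.13 and Cox7c at -0.19, Atp5g1 at 0.12, and Sdhaf1 at 0.17 and Ndufaf2 at -0.29. For KO-DOX over KO-CTRL they were Ndufs8 at 0.18, Sdhd at 0.12 and Sdha at 0.01, Uqcrb at 0.11 and Uqcrh at 0.03, Cox6a1 at 0.14 and Ndufa4 at -0.01, Atp5g2 at 0.09 and Atp5k at -0.11, and Ndufaf4 at 0.17 and Ndufaf6 at -0.07.

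For KO-CTRL over WT-CTRL they were Ndufab1 at 0.20 and Ndufs4 at -0.13, Sdhb at 0.16 and Sdha at 0.01, Uqcrfs1 at 0.11 and Uqcrb at 0.03, Cox8a at 0.16 and Cox7c at -0.07, Atp5g3 at 0.16 and Atp5k at -0.10, and Ndufaf1 at 0.19 and Ndufaf5 at -0.03. For KO-DOX over WT-DOX they were Ndufb1-ps at 0.40 and Ndufb4 at -0.05, Sdhd at 0.22 and Sdha at 0.04, Uqcrb at 0.22 and Uqcrh at -0.11, Cox5b at 0.18 and Cox7a2l at -0.07, Atp5k at 0.46 and Atp5a1 at 0.05, and Ndufaf2 at 0.30 and Ndufaf6 at -0.08. Of these, Ndufb1-ps and Atp5k are past the rule of size. Across the 89 nuclear members the Spearman correlation of fold with transcript length was between -0.04 and 0.04, given as a description over genes of the same libraries. In WT-DOX against WT-CTRL the rule of size called lower 13.6% of 66 other genes under 400 bases and 17.1% of 70 at 400 to 500 bases. Of 8249 other genes of 1000 bases or more it called 3.32% lower. Atp5k was the 1 nuclear member under 400 bases, and the part of length in its fold was not tested.

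**Figure D4:**
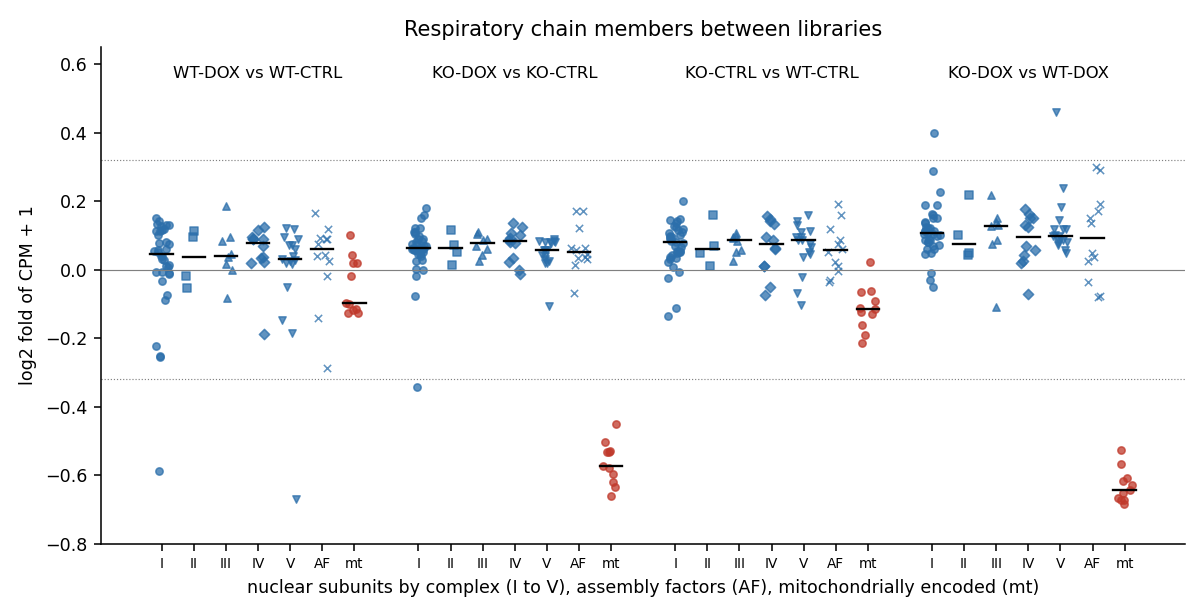
Log2 fold of CPM plus 1 for each member of at least 5 CPM in the 4 comparisons of libraries, with nuclear subunits by complex, assembly factors (AF) and mitochondrially encoded members (mt). Dotted lines mark 0.32 in either direction. The mitochondrially encoded points lie below the lower line in both comparisons that hold KO-DOX and between -0.21 and 0.10 in the others. Among nuclear points Atp5k and Ndufb1-ps lie outside the lines in both comparisons that hold WT-DOX, and Ndufb4 at -0.34 in KO-DOX against KO-CTRL.

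Lists outside the symbol rule did not show the pattern of the mitochondrially encoded members. By the rule of size, none of the 12 tested genes of mitochondrial DNA copying and transcription and none of the 6 regulators differed in KO-DOX against KO-CTRL, with medians of 0.03 and -0.08. Of all genes 0.73% were higher and 0.907% lower there, so no call in lists this small is near the shares of all genes. The sum over mitochondrial ribosomal proteins differed by 0.06 in that comparison.

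Of the mitochondrially encoded members, 11 of 12 tested were higher in CD8 than in CD4 cells, both non-cycling, with a median log2 difference of 0.41. On CPM, 0 of 11 had all CD8 values apart from all CD4 values over the libraries. For the nuclear members the direction depends on the scaling. With TMM 40 of 89 were higher and 7 lower, with a median of 0.08, beside 24.4% and 24.8% of 11684 genes, whereas with library totals alone 10 were higher and 42 lower, with a median of -0.09, beside 11.1% and 46.7%. The median over all genes was 0.01 with TMM and -0.16 with library totals, and ribosomal protein genes took 27.4 to 28.6% of UMIs in CD8 cells and 21.8 to 22.6% in CD4 cells. The nuclear median lay above the median over all genes under both scalings, and the mitochondrially encoded members kept 11 higher calls, with a median of 0.24 on library totals.

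By library the mitochondrially encoded sum was higher in CD8 than in CD4 cells by 0.07, 0.23, 0.26 and 0.30 on the log2 scale in KO-DOX, KO-CTRL, WT-DOX and WT-CTRL, smallest in KO-DOX. At a log2 difference of at least 0.5 in size 2 mitochondrially encoded and 0 nuclear members were higher and 1 nuclear member lower, beside 7.01% of all genes higher and 11.4% lower. On CPM, all 4 CD8 values lay above all 4 CD4 values for 5 of 89 nuclear and 0 of 11 mitochondrially encoded members and below them for 21 and 0, beside 8.71% and 41.1% of 8934 genes. mt-Co1 stood at 114, 181, 168 and 185 CPM in CD8 cells of those libraries and at 109, 152, 138 and 153 CPM in CD4 cells. Within each library the CD8 value was the higher one, but the classes overlap across libraries, and KO-DOX is the lowest library in both. Its edgeR log2 difference was 0.40 ± 0.04 (adjusted p = 1.2e-09). mt-Nd2 had the largest at 0.55 ± 0.07 (edgeR adjusted p = 6.8e-07), with 19.1, 31.1, 30.1 and 35.7 CPM in CD8 cells and 19.3, 23.0, 24.5 and 23.1 CPM in CD4 cells. In KO-DOX its CD8 value lay just below its CD4 value, and in the other libraries the CD8 value was higher. The members of complex I had a median of 0.49, those of complex IV 0.38, those of complex V 0.40, and mt-Cytb of complex III had 0.33. In KO-DOX the sum of both members of complex V was lower in CD8 cells, at 98.3 CPM against 105 CPM in CD4 cells, a log2 ratio of -0.10 before TMM. In KO-CTRL, WT-DOX and WT-CTRL that ratio was 0.22, 0.30 and 0.40.

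Of the nuclear members, Sdhaf1 had the largest difference and kept its direction under both scalings. It stood at 44.2, 43.2, 45.1 and 39.6 CPM in CD8 cells of KO-DOX, KO-CTRL, WT-DOX and WT-CTRL, against 85.9, 75.2, 77.6 and 74.3 CPM in CD4 cells, without overlap, a log2 difference of -0.69 ± 0.05 with TMM (edgeR adjusted p = 2.2e-12) and -0.86 with library totals. Sdhaf1 overlaps E130208F15Rik by 1733 bases on the opposite strand. Among the other 6 called in that direction with TMM, the largest differences with TMM and with library totals were those of Atp5f1 at -0.15 and -0.32, Sdhaf2 at -0.15 and -0.32, Ndufv2 at -0.13 and -0.30, and Atp5md at -0.10 and -0.28. Ndufv2 turned to 0.014 with CD4 cells held to the depth range of CD8 cells.

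Higher in CD8 cells under both scalings were Ndufa10, at 0.44 with TMM and 0.27 with library totals, Cox7a2l at 0.42 and 0.25, Cox8a at 0.35 and 0.18, Atp5mpl at 0.35 and 0.18, and Ndufaf4 at 0.34 and 0.16. Cox7a2l, the supercomplex factor, stood at 481, 469, 480.4 and 485 CPM in CD8 cells of KO-DOX, KO-CTRL, WT-DOX and WT-CTRL, against 391, 405, 412 and 400.5 CPM in CD4 cells. All 4 CD8 values lay above all 4 CD4 values (edgeR adjusted p = 9.5e-12). Ndufa10, an accessory subunit of complex I, stood at 105, 94.8, 96.1 and 96.6 CPM in CD8 cells and at 77.3, 82.7, 84.6 and 79.0 CPM in CD4 cells, also without overlap (edgeR adjusted p = 5.3e-09). Cox4i1 had 0.18 with TMM and 0.01 with library totals. Cox5a had 0.14 with TMM and -0.03 with library totals, so its direction turned with the scaling. With both classes held to cells of 2500 to 5000 UMIs and TMM, 44 of 89 nuclear members were higher and 5 lower and 11 of 12 mitochondrially encoded members were higher, with a median of 0.29 for these, beside 20.2% and 21.2% of 10892 genes.

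**Figure D5:**
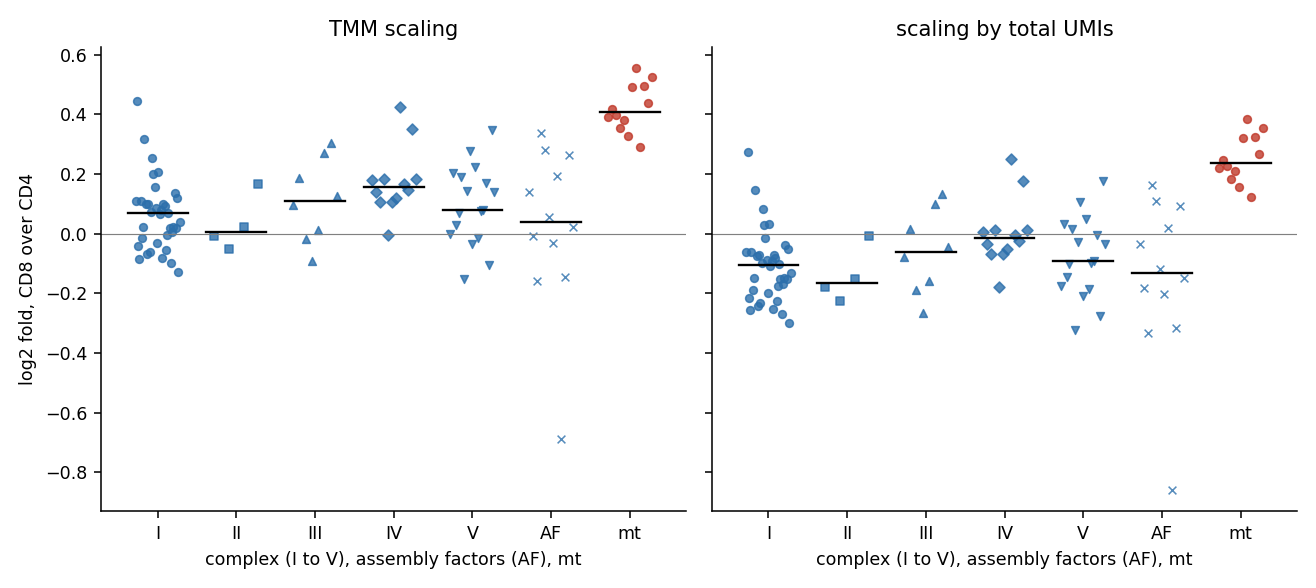
Log2 fold of CD8 over CD4 cells for each member tested, by complex, for assembly factors (AF) and for mitochondrially encoded members (mt), with TMM scaling in 1 panel and library totals in the other. The mitochondrially encoded members lie above 0 in both panels, while the nuclear members are centred at 0.08 with TMM and at -0.09 with library totals.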

How the data were processed

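The deposited values are counts of unique molecular identifiers (UMIs) for each gene and barcode in 4 libraries, in the authors' own matrices. Per the submitters' processing notes, reads were placed on mm10. Which tools aligned, counted and called cells, and whether strand was used, is not given in the sources used here. Each library held 37754389 to 47081849 UMIs.

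Kept were barcodes of 300 or more genes whose mitochondrial UMIs made up no more than 10%. T-gated cells had at least 1 UMI over Cd3d, Cd3e, Cd3g, Trac, Trbc1, Trbc2 and Trdc, and fewer than 2 UMIs over a list of B cell, myeloid and plasmacytoid genes that includes Cd79a, Ms4a1, Jchain, Lyz2, Csf1r and Siglech and is not reported here in full. CD4 cells had a Cd4 UMI and none of Cd8a or Cd8b1, CD8 cells the reverse, and cycling cells at least 2 UMIs of Mki67 and Top2a together. Cycling cells were left out of the CD4 and CD8 gates. No doublet caller was run, and the barcodes with UMIs of both Cd4 and Cd8 entered neither gate. The same holds for T-gated cells with neither, which numbered 3300, 4302, 4074 and 4185 in KO-DOX, KO-CTRL, WT-DOX and WT-CTRL. The CD4 gate held 1666, 2310, 1743 and 2092 cells and the CD8 gate 4595, 5470, 5915 and 5624.

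UMIs were summed per library and gate and divided by all UMIs of the same cells (counts per 1e+06, CPM). Levels carry exact Poisson 95% intervals, and ratios of sums exact conditional binomial ones. Both cover counting error only. With 1 library a group no test between libraries exists. Members are called apart between libraries at a log2 fold of CPM plus 1 of at least 0.32 in size, intervals apart and a mean of at least 5 CPM. Classes of cells were compared with the quasi-likelihood test of edgeR 4.0.16 in R 4.3.3 (TMM, filterByExpr, library as block, 8 sums, all genes), with Benjamini-Hochberg adjusted p under 0.05. A library is the replicate there and pairs its own classes. The SE is the size of the log2 difference over the square root of the quasi-likelihood F. It is not the spread of the differences by library. DESeq2 1.42.0 was an alternative. The fits were tested on simulated data. Other steps used Python 3.11.15 with numpy 2.4.6, scipy 1.17.1, pandas 2.3.3 and matplotlib 3.10.9.

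Gene positions come from GENCODE M21 for GRCm38, and promoters from RefSeq for GRCm38.p6. The members and lists were chosen with earlier results of these data known. Named members are every mitochondrially encoded one, the 4 Sdh subunits, the isoform families, the 3 nuclear members of highest pooled CPM in each complex, the nuclear extremes of each library comparison by complex, and the 5 nuclear members of largest fold in each direction of each class contrast. The inhibitor Atp5if1, on that list too, is not analysed here.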

Additional observations from a re-analysis of the deposited data

Results flagged for a closer look

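Of 127 groups of 4 libraries examined by Dixon's test, 7 held a library far from the other 3, where chance alone gives about 1 in 20. The count is near that share, so the 7 are listed as a description only. The groups were the class differences of named members and of the mitochondrially encoded and nuclear subunit sums only. The log2 difference of cycling over non-cycling cells of Ndufa3 was 0.68 in WT-DOX and 0.56 to 0.58 in the others, and that of mt-Atp8 was -1.20 in WT-DOX and -1.52 to -1.50 in the others. For CD8 over CD4 cells, Atp5g3 had -0.15 and Atp5md -0.17 in WT-DOX, against -0.23 to -0.22 and -0.32 to -0.30 in the others, and Atp5mpl had 0.093 in WT-CTRL, against 0.20 to 0.22. In KO-DOX, Ndufaf5 had 0.35, against 0.03 to 0.06, and mt-Co1 had 0.065, against 0.25 to 0.29.

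For 5 values the log2 ratio of doxorubicin over control treatment ran in opposite directions in the knockout-labelled pair and the pair of control genotype, with counting intervals that separated treatment from control in both pairs. Only the 68 named members, which include the extremes of these same comparisons, and the sums were examined. The share over all genes was not computed. Named members of opposite sign whose intervals overlapped in either pair are not listed. With 1 library a group, the difference was not tested. Ndufs4 had 0.10 in the knockout-labelled pair and -0.22 in the control pair, a difference of 0.33, and Uqcrb had 0.11 and -0.08, a difference of 0.19. mt-Cytb had -0.57 and 0.10, a difference of -0.67. The nuclear subunit sum in CD4 cells had 0.05 and -0.02, a difference of 0.064, and the mitochondrially encoded sum in cycling cells had -0.46 and 0.44, a difference of -0.90.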

How the results depend on the processing

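Of 1023 recomputed values, 940 were taken as unchanged. Single values were so where they kept their direction and their side of the threshold or moved by less than the counting error. Counts of members called between classes were so where they changed little, although single members could cross the threshold. An example is the count of nuclear members higher in CD8 cells, 40 in the main fit and 34 without the library as block. For a changed value the cause was not tested. The mitochondrially encoded log2 ratio of KO-DOX over KO-CTRL was -0.54 over all barcodes, -0.59 over cells of 800 genes or more with mitochondrial UMIs of 5% or less, -0.52 with each cell weighted alike and -0.60 with an equal class mix. For KO-DOX over WT-DOX it was -0.70 without cells of high Malat1 and Neat1 share, -0.67 with median-of-ratios scaling, -0.58 with each cell weighted alike and -0.60 with an equal mix. For WT-DOX over WT-CTRL it was 0.011 with the 800-gene filter, 0.024 without high Malat1 and Neat1, and -0.15 with each cell weighted alike. For KO-CTRL over WT-CTRL it was -0.11 over all barcodes, -0.048 with the 800-gene filter, -0.22 with each cell weighted alike and -0.012 with an equal mix. The nuclear ratio of WT-DOX over WT-CTRL reversed to -0.0084 without high Malat1 and Neat1, and was 0.048 with median of ratios, 0.056 with each cell weighted alike and 0.051 with an equal mix. For KO-DOX over KO-CTRL it was 0.053 over all barcodes, 0.037 without high Malat1 and Neat1 and 0.052 with median of ratios. For KO-CTRL over WT-CTRL it was 0.075 over all barcodes, 0.056 with each cell weighted alike and 0.044 with an equal mix, and for KO-DOX over WT-DOX 0.11 without high Malat1 and Neat1, 0.075 with median of ratios, 0.062 with each cell weighted alike and 0.055 with an equal mix. By the rule of size without a filter on level, 1 mitochondrially encoded member was lower in WT-DOX against WT-CTRL and 1 in KO-CTRL against WT-CTRL, and 1 nuclear member was higher in KO-CTRL against WT-CTRL and 1 in KO-DOX against KO-CTRL. The lower nuclear member of KO-DOX against KO-CTRL became 0 with a pseudocount of 5 CPM and with a minimum of 20 CPM.

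No paired analysis was possible because a group is 1 library in the comparisons between libraries. Between classes, the fit without the library as replicate block called 81 nuclear members higher and 4 lower and 12 mitochondrially encoded members lower in cycling cells. Without the block, 34 nuclear members were higher and 2 lower, and 9 mitochondrially encoded members higher, in CD8 cells. In cycling cells of 5000 to 10000 UMIs, 32 nuclear members were higher and 4 mitochondrially encoded ones lower, and with a log2 difference of at least 0.5 in size 1 nuclear member was lower. In CD8 over CD4 cells the nuclear members lower numbered 2 with DESeq2, 2 without a filter on low counts, 3 with CD4 cells held to the depth range of CD8 cells, 13 with a stricter gate and 12 without high Malat1 and Neat1. With library totals 10 were higher and 42 lower, and at a log2 difference of at least 0.5 in size 0 nuclear members were higher, 1 lower and 2 mitochondrially encoded ones higher. Leaving out 1 library at a time gave 3 to 8 nuclear members lower, the 3 without WT-CTRL and without KO-CTRL, and 34 to 45 higher. Ndufv2 reversed to 0.014 with CD4 cells in the depth range of CD8 cells. The settings with shared barcodes left out, both classes in 1 depth range, a least log2 difference of 0.5, library totals, and, between classes, cells of high Malat1 and Neat1 left out were chosen after seeing the data.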

Other observations

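Barcodes that failed the T gate numbered 256, 242, 238 and 330 in KO-DOX, KO-CTRL, WT-DOX and WT-CTRL, and their mitochondrially encoded sum was 2729, 2124.5, 4399.6 and 3745 CPM. After T-gated cells were thinned to 1500 UMIs, the tenth of cells richest in mitochondrially encoded UMIs held 54.4, 46.8, 48.8 and 47.8% of them in KO-DOX, KO-CTRL, WT-DOX and WT-CTRL.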
